A study of Mus musculus with 13 samples.

Results

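Ciliated cells of the lung airways were examined in the single-cell RNA counts of dissociated mouse lungs, and 146 of 22641 cells met the rule that defined them. The rule took cells in which at least 3 of the 4 markers Foxj1, Tmem212, Ccdc153 and Dynlrb2 were detected, or in which these markers together gave at least 5 UMIs (unique molecular identifiers, each marking 1 captured RNA molecule). It further asked for 0 UMIs of Ptprc, the leukocyte surface phosphatase CD45, and for at most 20% of UMIs from mitochondrial genes. The ciliated cells were 0.645% of the cells counted (exact 95% interval 0.545 to 0.758%). Intervals here and below cover counting error only.

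The study compared lungs of C57BL/6 mice in an ovalbumin-induced asthma model, an emphysema model made with porcine pancreatic elastase (PPE), a PPE-recovery model and a control, with 1 mouse in each for single-cell sequencing. Asthma mice were sensitized and challenged with ovalbumin. Tracheal instillation was repeated weekly for PPE-emphysema and controls, whose lungs were taken 3 days after the final dose, and was given only once, with PPE, for PPE-recovery. Neither the agent that controls received nor the age of the mice is known from the sources used here. The other 9 samples of the series, named Acute, Con and emphysema, were taken as bulk samples and not analysed here.

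The matrix names its cells by 7 library numbers and not by group, so no library could be assigned to a model and no comparison between models was possible. All values are given by library number or over the libraries together, as 1 sample without replicates, and no test was run. Ciliated cells were found in libraries 1, 2, 3 and 7. In library 1 they numbered 14 of 5519 cells, or 0.254% (0.139 to 0.425%). In library 2 they numbered 58 of 8113 cells, or 0.715% (0.543 to 0.923%), in library 3 they numbered 44 of 5496 cells, or 0.801% (0.582 to 1.07%), and in library 7 they numbered 30 of 3513 cells, or 0.854% (0.577 to 1.22%). The interval of library 1 lay below those of the other 3, which overlapped each other. The same rule found 0 of 12991 cells in libraries 4, 5 and 6, which allows a share of up to 0.0231% (3 cells of the total).

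Multiciliated cells line the conducting airways and beat mucus and trapped particles towards the throat. Each motile cilium is built on a basal body and carries an axoneme, a ring of doublet microtubules around a central pair, with outer and inner dynein arms as motors, radial spokes and a nexin-dynein regulatory complex that coordinate them, and proteins inside the microtubule walls that stiffen them. The cell switches this gene set on together, under the transcription factors Foxj1, Rfx2 and Rfx3, Myb and Trp73, and intraflagellar transport carries the parts into the growing cilium. In mouse airways these cells arise from secretory club cells, which release Scgb1a1 and detoxify inhaled chemicals with Cyp2f2.

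Most cells stood well clear of the limits of the rule. All 4 markers were detected in 139 of the 146 cells and 3 in 5 cells, and the median cell had 101 UMIs of the markers. Just inside the limits were a cell of library 1 with 5 UMIs of 1 marker and 3699 UMIs of Sftpc, the surfactant protein of alveolar type 2 cells, and a cell of library 2 with 6 UMIs of 2 markers and 43.4% of its UMIs from Scgb1a1. Another cell of library 2 had 3 markers with 3 marker UMIs, the lowest sum of any ciliated cell. Just outside, among cells without Ptprc, were 206 cells with 1 marker and 7 with 2, none above 4 marker UMIs. Foxj1 was detected in 97.3% of the ciliated cells, Tmem212 in 99.3%, Ccdc153 in 98.6% and Dynlrb2 in 97.9%, which the rule largely fixed. These 4 markers had UMIs in 0.467%, 0.404%, 0.413% and 1.07% of the other cells.

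Other known markers, which the rule did not use, were detected in nearly all of the cells. Tppp3, a tubulin polymerization protein, was detected in 98.6% of ciliated cells, Rsph1 of the radial spokes in 95.9%, and Sec14l3, a lipid-binding protein abundant in ciliated epithelium, in 96.6%. The other cells held them in 30.2%, 0.618% and 2.81%, so that Tppp3 was the least specific. Cells were then thinned to 1500 UMIs, and those with fewer were left out. Sec14l3 and Tppp3 were each still detected in 95.2% of the ciliated cells described below as low in Scgb1a1, of which 1 was left out. In T cells thinned to the same depth, of which 33 were left out, the shares were 0.431% and 2.01%. Markers of basal cells, ionocytes and tuft cells were at or near 0, with 0 UMIs of Krt5, Krt14 and Trp63 (basal cells), Foxi1 (ionocytes) and Pou2f3 (tuft cells). Those of secretory cells were not. The 7 club cell markers summed to 173225 CPM over all ciliated cells, most of it Scgb1a1, and to 3628 CPM in the low cells. The 8 goblet cell markers summed to 864 CPM against 51.0 CPM in the other cells, led by Bpifb1 at 329 CPM, and to 16.5 CPM in the low cells. The 7 alveolar type 1 markers summed to 754 CPM (932 CPM in the low cells) against 278 CPM in the other cells, led by Hopx at 452 CPM, and 27 ciliated cells had at least 3 of them detected. The part of these markers in the results was not tested. The T cell marker Cd3e was at 0. The 8 macrophage markers summed to 350 CPM against 22888 in the other cells. The 8 alveolar type 2 markers summed to 12804 CPM in library 1 and to 1561, 1380 and 619 CPM in libraries 2, 3 and 7. Of the 3965 Sftpc UMIs 3699 lay in the cell of library 1 named above.

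The cells were deeply sampled. The libraries held 50552002, 79439569, 47364075 and 34606626 UMIs over all barcodes of libraries 1, 2, 3 and 7. Ciliated cells had a median of 16748 UMIs and 4970 detected genes, against 6992 UMIs and 2476 genes in the other cells of the 4 libraries, and a median of 6.08% of UMIs from mitochondrial genes against 4.91%. Together the ciliated cells gave 3433104 UMIs. A version of the filter stated by the authors, which also removes cells with many UMIs or genes, leaves 60 of the 146. Its upper limits of 21736 UMIs and 4961 genes are the mean plus 2 standard deviations over all 37344 barcodes of the 7 libraries. The barcodes on which the authors set their limits are not known here. The authors' filter below means this version. The barcode sequences of 128 cells occurred in more than 1 of the 4 libraries, and no ciliated cell shared its barcode with a ciliated cell of another library.

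A further property divided the cells and bears on every pooled value. Scgb1a1, the main secreted protein of club cells, took at least 13.8% of the UMIs of 20 ciliated cells, with a median of 42.2% and a highest value of 62.3%. In the other 126 cells it took at most 1.61%, with a median of 0.0934%. No cell lay between 1.61% and 13.8%, and the cells were divided at 5%, a limit chosen after the values were seen. The 20 cells high in Scgb1a1 came from all 4 libraries, with 4, 9, 5 and 2 cells in libraries 1, 2, 3 and 7. They had a median of 62417 UMIs, and none had fewer than 39413. The 126 low cells had a median of 15497 UMIs and none had more than 43267. Although few, the 20 cells gave 38.1% of all UMIs of the ciliated cells.

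Both kinds of cell carried the ciliary program in about the same number of molecules. The UMIs of 109 axonemal genes summed to a median of 422 in the low cells and 477 in the high cells. These genes came from lists of dynein arms, radial spokes, central pair, nexin-dynein regulatory complex and microtubule inner proteins, without the marker Dynlrb2. Foxj1, on which the cells were chosen, gave a median of 12 UMIs in the low cells and 13.5 in the high cells. As a share of each cell's RNA they differed, since the axonemal sum had a median of 27249 CPM (counts per 1000000 UMIs) in the low cells and 7482 CPM in the high cells. The other cells of the libraries had a median of 684.5 CPM, much of it from shared light chains such as Dynll1. Among the low cells the median was 26249, 27889, 26712 and 28198 CPM in libraries 1, 2, 3 and 7. All 20 high cells also met the rule used to find club-type cells (at least 3 of Cyp2f2, Scgb3a2, Aldh1a7, Cldn10 and Gabrp detected), and 15 of them met that for alveolar type 2-type cells (at least 3 of Lamp3, Abca3, Etv5, Sftpa1 and Slc34a2). Of the 126 low cells, 27 met the first and 4 the second. The high cells had more UMIs, and the part of depth in meeting these rules was not tested. Whether a droplet held more than 1 cell was not tested. Values below are over all 146 cells unless the low cells are named, and the CPM of ciliary genes was higher in the low cells, as with Foxj1 at 846 against 606 CPM and Sec14l3 at 3162 against 2354 CPM.

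**Figure D1:**
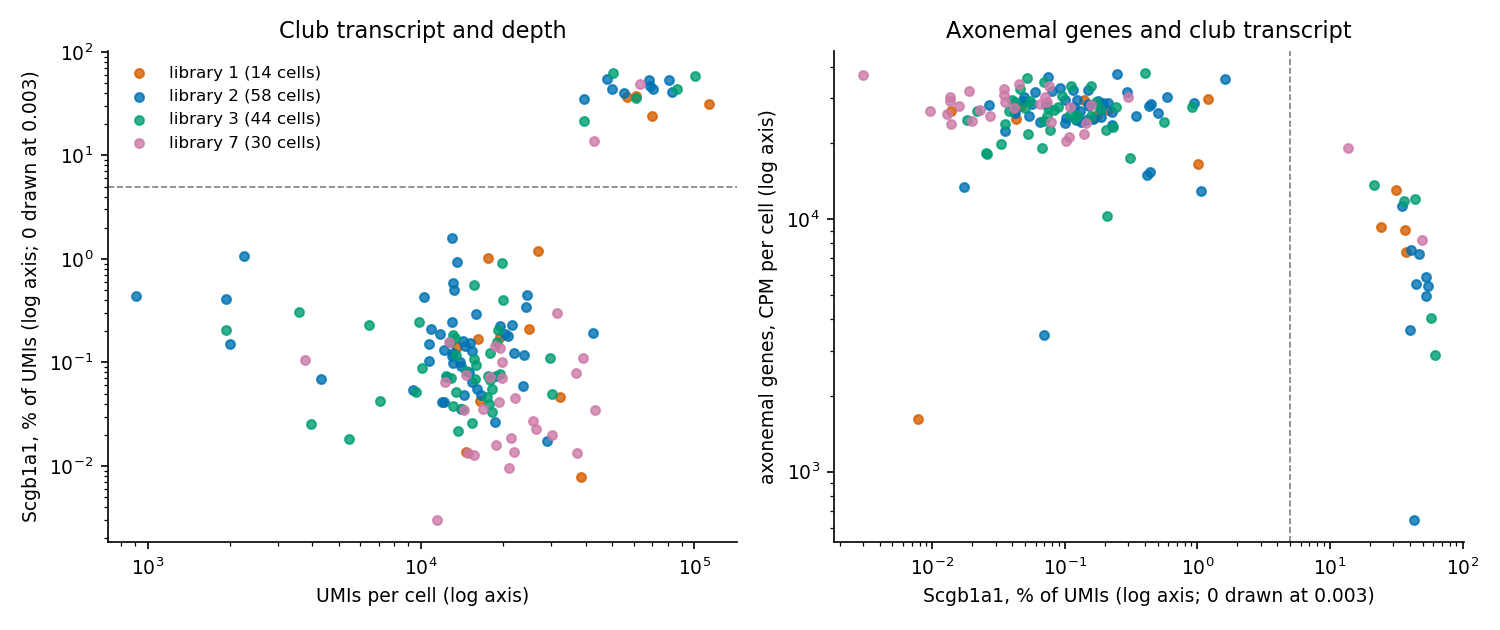
Each point is 1 of the 146 ciliated cells. The left panel sets the cell's UMIs (log axis) against its percentage of UMIs from Scgb1a1 (log axis), and the right panel sets that percentage against the summed CPM of 109 axonemal genes. The dashed line marks 5%. The 20 cells above it have 39413 or more UMIs and lower axonemal CPM, with a median of 7482 against 27249 in the 126 cells below it.

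Against all other cells of libraries 1, 2, 3 and 7, the CPM of 1931 of 13350 genes counted was at least 4-fold higher in ciliated cells (14.5%). Another 2354 genes were at least 4-fold lower (17.6%). A gene was counted where at least 10 UMIs were observed in the ciliated cells or would be there at the level of the other cells. UMIs come from the 3′ ends of transcripts and were not divided by length. The median log2 fold over all 13350 genes was −0.21, and folds of lists can be read against it. Thinning to 1500 UMIs leaves fewer genes to count and drops cells with fewer UMIs, which left 145 ciliated and 20320 other cells. With cells so thinned, 1088 genes were at least 4-fold higher and 804 lower. Against club-type and alveolar type 2-type cells in place of all others, 969 were lower. Without the 20 high cells, 2049 genes were at least 4-fold higher and 2036 at least 4-fold lower. Since the cells were chosen by their markers, these folds describe the cells and were not tested.

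The higher genes reached large folds. At least 16-fold higher were 947 genes, at least 64-fold higher 508, and at least 256-fold higher 227. Of the 508 genes, 306 were detected in at least 50% of the ciliated cells. Genes with only a numbered name (Rik or Gm) made up 5.22% of the genes counted and 19.1% of the genes at least 64-fold higher, where they numbered 97, and 60 of the 508 were noncoding.

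The folds depend on marker cells among the others. There were 20 cells that met the marker rule but had a Ptprc UMI and so stayed with the other cells. They held a median of 57.7% of the other cells' UMIs of the 306 genes. Leaving them out raised the median fold of the 306 genes from 274 to 649.

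Among genes detected in at least 50% of the cells, Fam216b had the highest fold and reached 178 CPM (164 to 193), 630-fold over the other cells. Drc7, of the nexin-dynein regulatory complex, reached 128 CPM and 560-fold. Dcdc2a, a doublecortin-domain protein that binds microtubules, reached 143 CPM and 553-fold, Akap14, an anchor for protein kinase A, 101 CPM and 543-fold, and Spag16 of the central pair 148 CPM and 541-fold. Efcab10 reached 302 CPM and 526-fold, and Agr3, a disulfide isomerase of the endoplasmic reticulum known from airway ciliated cells, 181 CPM and 482-fold. All of these were detected in at least 83.6% of ciliated cells. Outside the lists of genes used here, the whey acidic protein Wfdc13 had the highest fold at 942, with 63 UMIs spread over 21.9% of the ciliated cells, followed by Ankrd65 at 777. This order changed without the marker cells with Ptprc, where Wfdc13 had a fold of 1252, Ankrd65 1808 and Dcdc2a, also outside the lists, 4173. The noncoding transcripts C530043A13Rik and Gm34059 had 31 and 30 UMIs in the ciliated cells and 2 UMIs each in all other cells.

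The axonemal lists were higher nearly throughout. Of 111 counted genes in 7 lists (outer arms, their docking complex, inner arms, radial spokes, central pair, nexin-dynein regulatory complex and microtubule inner proteins), 107 were at least 4-fold higher and none was 4-fold lower. The 4 that did not reach 4-fold were the light chains Dynlrb1 and Dynll2, which cytoplasmic dynein also uses, the heavy chain Dnah8, and Tctex1d2 at 3.86-fold. Without Dynlrb2, a marker of the rule that belongs to these lists, 106 of 110 were higher.

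Outer dynein arms, which drive beat frequency, had 11 of 14 genes at least 4-fold higher and a median log2 fold of 5.73, or 10 of 13 and 4.67 without the rule marker Dynlrb2. The heavy chain Dnah5 reached 400 CPM in ciliated cells and 480-fold, and the heavy chain Dnah9, found in the distal part of the cilium, 234 CPM and 481-fold. Dnah11, found in the proximal part, reached 133 CPM and 112-fold. The intermediate chains Dnaic1 and Dnaic2 had 97.3 and 144 CPM. The heavy chain Dnah8, known from sperm, had 8.16 CPM and a fold of 0.820. All 6 docking complex genes were higher, with Efcab1 at 175 CPM and 356-fold and Armc4 at 78.4 CPM and 374-fold.

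The inner arms, which shape the waveform, had 14 of 15 genes at least 4-fold higher. Their heavy chains Dnah12, Dnah6, Dnah3 and Dnah10 had 375, 306, 173 and 161 CPM, and Dnali1, an inner arm light chain, had 242 CPM and 354-fold. Dnah14 had 2 UMIs in all and was not counted. All 16 counted assembly factors, which fold dyneins in the cytoplasm before export, were higher, but less so, with a median log2 fold of 4.72. Zmynd10 reached 131 CPM and 259-fold and Lrrc6 105 CPM and 380-fold, whereas the general chaperones Ruvbl1 and Ruvbl2, used in many cells, were 4.74-fold and 8.75-fold higher.

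Radial spokes and the central pair, which regulate the dyneins, had all of their 20 and 17 counted genes at least 4-fold higher, with median log2 folds of 8.18 and 8.51. Rsph1, in the spoke head, reached 606 CPM and 349-fold, Rsph9 313 CPM and Rsph4a 226 CPM, while Rsph6a, a spoke head gene known from testis, had 0 UMIs. Of the central pair, Spag17 reached 330 CPM, Hydin 239 CPM and Spag6l 240 CPM, each between 358-fold and 413-fold. The nexin-dynein regulatory complex and the molecular ruler that sets the axoneme's repeat length had 12 of 12 genes higher. Ccdc39 and Ccdc40, the ruler, had 344 and 162 CPM.

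Microtubule inner proteins had 27 of 27 counted genes higher and a median log2 fold of 7.41. The gene 1110017D15Rik led at 910 CPM and 471-fold, followed by Cfap126 at 581 CPM and 183-fold. Tekt1, Tekt2 and Tekt4 of the tektins, filament proteins of the doublet wall, had 223, 110 and 177 CPM, against 4.37 CPM for Tekt3 and 1.17 CPM for Tekt5. The tektins thus fell into 3 genes detected in at least 82.9% of cells and 2 detected in at most 9.59%.

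**Figure D2:**
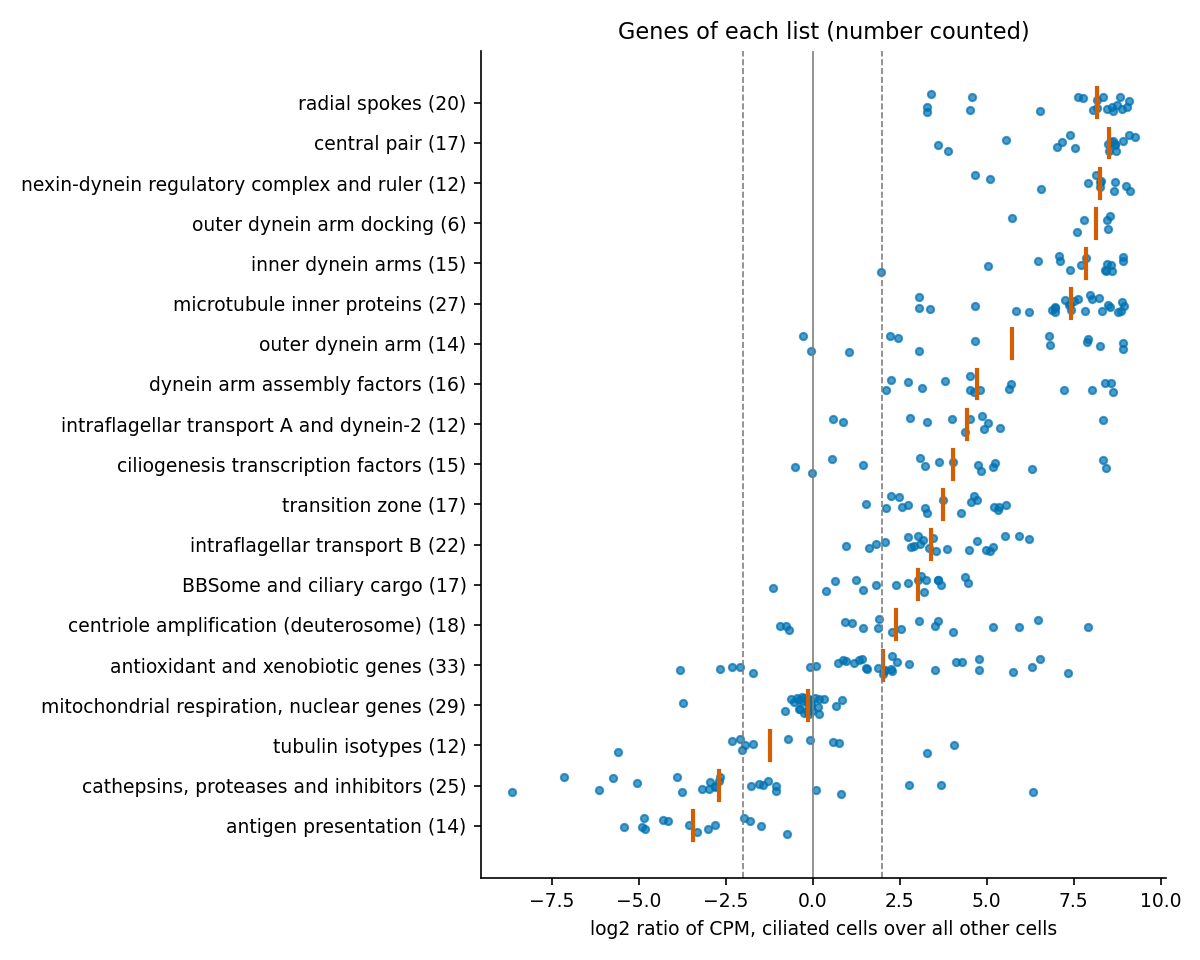
Each blue point is a counted gene of 1 of 19 gene lists, placed by its log2 ratio of CPM in ciliated cells to that in all other cells, and the orange bars are list medians. Dashed lines mark 4-fold in either direction. The axonemal lists, which include the rule marker Dynlrb2, lie to the right with medians between 5.73 and 8.51, and antigen presentation lies to the left at −3.45.

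Genes of transport into the cilium were higher by smaller factors, and many are used for primary cilia in other cells. Of intraflagellar transport complex B, which carries cargo towards the tip, 19 of 22 genes were at least 4-fold higher, with a median log2 fold of 3.39. Traf3ip1 reached 459 CPM and 73.8-fold, Ift88 176 CPM and 36.2-fold, while Ift20, also found at the Golgi, had 320 CPM and 3.53-fold. Complex A with its motor dynein-2, which returns cargo, had 10 of 12 genes higher (median log2 fold 4.43), led by Ift43 at 419 CPM and the motor heavy chain Dync2h1 at 256 CPM. Transition zone genes, which gate the base of the cilium, had 16 of 17 higher, and the BBSome and ciliary cargo list 11 of 17, with medians of 3.75 and 3.03. Neither of these lists had a gene at 64-fold or more.

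Tubulin, the substance of the axoneme, was led by 2 isotypes. Tuba1a had 2347 CPM (9.71-fold) and Tubb4b 2224 CPM (16.8-fold), and they were the only ones of 12 counted isotypes at least 4-fold higher. Tuba1b followed with 683 CPM at a fold of 1.69. Tubb5, a beta isotype of many cells, was lower at 83.3 CPM and a fold of 0.199, and Tubb2a, Tubb2b and Tubb6 were also at least 4-fold lower. By library Tubb5 had 296, 56.3, 32.1 and 42.1 CPM in libraries 1, 2, 3 and 7, against 461, 443, 372 and 359 CPM in the other cells. Tubb3 and Tuba8 had 0 UMIs. Of the enzymes that modify tubulin, the glutamylases Ttll6 and Ttll9 were 299-fold and 158-fold higher and the deglutamylase Agbl2 155-fold, while the acetyltransferase Atat1 stood at 3.55-fold.

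Of the transcription factors of ciliogenesis, 11 of 15 counted were at least 4-fold higher. Myb, required early in multiciliated differentiation, had 168 CPM (154 to 182) and was detected in 87.0% of ciliated cells, 36.3-fold over the others. Trp73, which switches on Foxj1, had 62.6 CPM and 321-fold. Rfx3 had 96.4 CPM and 12.4-fold and Rfx2 40.5 CPM and 8.43-fold, whereas Rfx1, expressed in many tissues, had a fold of 1.45. Foxj1 itself reached 606 CPM and 346-fold and belonged to the rule. The early switches were scarce, with 2 UMIs of Mcidas, 9 of Foxn4 and 11 of Gmnc over all 146 cells. E2f4 and E2f5, which act with them, had folds of 0.977 and 2.74.

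Deuterosomes, the transient bodies on which a differentiating cell makes its many centrioles, left few transcripts. Deup1, their scaffold, had 34.4 CPM and was detected in 61 cells. A single cell of library 1 had 27 UMIs of Deup1, 18 of the cyclin Ccno, 14 of Myb, 6 of the centriole kinase Plk4, 5 of Cdk1, 3 of Foxn4 and 2 of Mcidas. It held 8 of the 9 deuterosomal markers, had 69987 UMIs and 24.1% of them from Scgb1a1, and no other ciliated cell had more than 5 UMIs of Deup1. Another cell, of library 7, had 15 Ccno UMIs but 1 of Deup1. Cetn2, a centrin of mature centrioles, and Ccdc78, a protein found with deuterosomes, were detected in 97.9% and 92.5% of cells. Of cell cycle genes 1 of 21 was at least 4-fold higher, namely Ccna1 at 9.90 CPM and 290-fold, and Mki67 was lower at 10.5 CPM with a fold of 0.209. Only 2.05% of the cells had a Mki67 UMI.

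Genes whose human orthologs are mutated in primary ciliary dyskinesia, a disease of immotile airway cilia, were nearly all in this program. Of 49 counted genes 48 were at least 4-fold higher and 31 at least 64-fold, with a median log2 fold of 7.38. Ofd1, a basal body protein also needed for primary cilia, was the exception at 14.3 CPM and 1.49-fold. This list overlaps the axonemal lists and contains Foxj1. Cdhr3, the receptor of rhinovirus C, reached 329 CPM and 427-fold and was detected in 93.8% of cells.

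The cells were plainly epithelial. Epithelial junction and keratin genes had 14 of 16 at least 4-fold higher, among them Cd24a, a surface protein used to sort ciliated cells, at 1688 CPM and 11-fold, Cldn3 at 844 CPM, Krt8 at 786 CPM and Epcam at 325 CPM. Of ion transport genes 9 of 14 were higher, with Clic6 at 324 CPM and 175-fold and the sodium channel subunit Scnn1a at 259 CPM and 18.3-fold. The chloride channel Cftr had 1.46 CPM. Calcium-binding proteins of cilia had 14 of 19 at least 4-fold higher, among them Sntn, which lies at the tip of airway cilia, at 371 CPM and 450-fold. All 26 counted genes of a further list of ciliated cell markers were higher, led by Sec14l3 at 2354 CPM and 182-fold. Nuclear genes of mitochondrial respiration did not differ by this measure, with 0 of 29 higher, 1 lower and a median log2 fold of −0.14.

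The promoters of the higher genes were searched for the X-box, the DNA element that Rfx factors bind. The half-site GTTGCC (or GGCAAC on the other strand) was counted in RefSeq windows of 250 bases before to 50 bases after each gene start, in the build GRCm38.p6. It was present in 12.5% of all 32851 windows. It was present in 30.8% of 441 windows of genes at least 64-fold higher, for which 373 of 508 genes had a window, and in 43.1% of 102 windows of the axonemal lists, for which 90 of 111 genes had one. Genes at least 4-fold lower had it in 10.4% of windows and genes between these limits in 12%. Median GC content was 52.7% over all windows, 60.3% in those of genes counted, 61.3% between the limits and 54.7% in both higher sets, and its part in these shares was not tested. Facing pairs, which each contain a half-site (GTTGCC, 0 to 3 bases, then GGNNAC, on either strand), were present in 1.20% of all windows and 7.94% of those of genes at least 64-fold higher. The forkhead core TGTTTA (or TAAACA), whose matches cannot overlap those of the X-box, was present in 13.4% of all windows, 9.32% of those of genes counted, 8.46% between the limits, 11.2% of genes at least 4-fold lower and 15.2% of genes at least 64-fold higher. A match describes the letters and is not shown to be a bound site.

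The matches also lay close to the gene start. In the 25 bases before the start there were 8.16 half-sites per 100 windows of the genes at least 64-fold higher and 1.42 per 100 over all windows, and the median position was 35 bases before the start against 86. Of 122 genes of the axonemal lists and of highest fold, all at least 4-fold higher, 99 had a window. In 31 of them a run of 30 bases around a match lay wholly before the RefSeq start. Matches too near the start for such a run were not counted here. The 10 of highest CPM are shown to let the element be seen in its setting, as 30 bases 5′ to 3′ on the gene's own strand, with the half-site, or the facing pair for 1110017D15Rik and Lrrc23, in capitals. The ends of the runs are genome positions on the named strand.
Dynll1, chr5:115301117-115301146, minus strand: gcgcatcgcccgGGCAACcgacgctgtgcg
Ccdc153, chr9:44240513-44240542, plus strand: ctgagttttccaGTTGCCtggacaacgtgc
Dynlrb2, chr8:116504952-116504981, plus strand: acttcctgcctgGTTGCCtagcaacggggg
1110017D15Rik, chr4:41507765-41507794, minus strand: cggagtaaatgtGTTGCCCGGCAACaactc
Efcab10, chr12:33394702-33394731, plus strand: acctcctgccagGGCAACcctgagggctgc
Cfap20, chr8:95434946-95434975, minus strand: gaatagtcccttGGCAACcaagttccgcgc
Mns1, chr9:72438445-72438474, plus strand: gcgctcctgcctGGCAACgaagactctccg
Lrrc23, chr6:124779870-124779899, minus strand: ttggcctcGTAACCTGGCAACtactgagct
Mycbp, chr4:123904813-123904842, plus strand: ccgaatcgccgcGGCAACcggaacaggaag
Enkur, chr2:21205382-21205411, minus strand: gataaaagccagGTTGCCccgtctcctagc
These genes ranged from Dynll1, a light chain of many cells at 1687 CPM and 4.62-fold, and Cfap20 at 8.36-fold, to the rule marker Ccdc153 at 1542 CPM and 506-fold and Efcab10 at 526-fold. Only genes at least 4-fold higher were considered for these runs, so the 10 cannot show whether genes of lower fold hold the half-site.

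**Figure D3:**
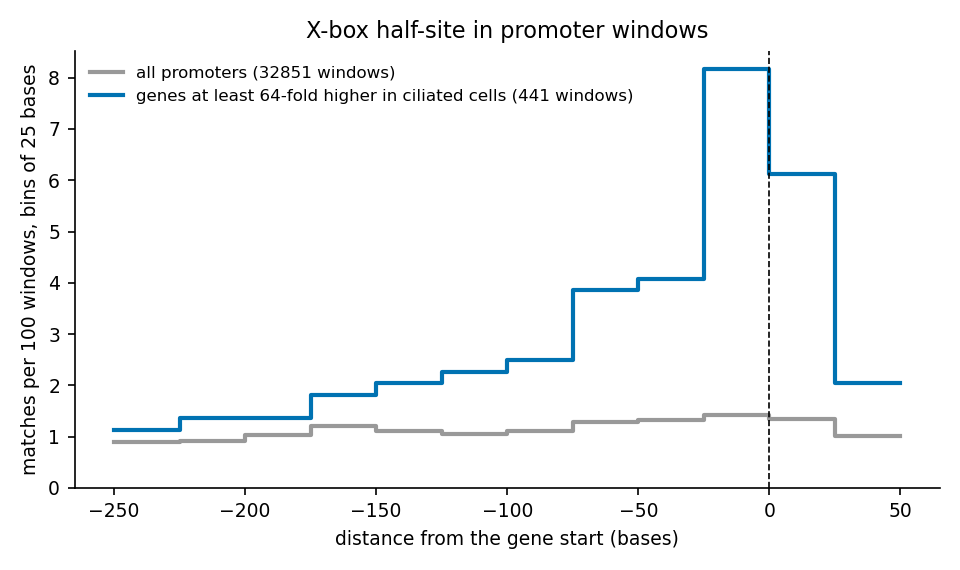
The x axis is the position from the gene start in bases, in bins of 25, and the y axis the number of X-box half-site matches per 100 promoter windows. The bin just before the start holds 8.16 matches per 100 windows of genes at least 64-fold higher and 1.42 per 100 of all windows.

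Transcripts shared with club cells differed in their level in the low cells. Among the 16 club cell genes, 15 were at least 4-fold higher in all 146 cells (median log2 fold 3.87). In the 126 low cells 6 were higher and 4 lower, with a median of 0.07. The low cells were compared with 61 club-type cells and 404 alveolar type 2-type cells found by the rules above, with 0 Ptprc UMIs. Median UMIs per cell were 15497 in the low ciliated cells, 8410 in the club-type cells and 16329 in the alveolar type 2-type cells. The 1426 T cells (at least 2 of Cd3d, Cd3e, Cd3g and Trac detected), with a median of 5996 UMIs, gave the background of free RNA.

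Several detoxifying and metabolic genes, and some secreted proteins, were abundant in the low cells. Cbr2, a carbonyl reductase of airway and alveolar epithelium, had 5512 CPM (5413 to 5613) in the low ciliated cells, 5163 CPM (5024 to 5304) in club-type cells and 2376 CPM in alveolar type 2-type cells. It was detected in 100% of low cells, and at 1500 UMIs per cell in 98.4% of them against 1.36% of T cells. Aldh1a1, a retinaldehyde dehydrogenase, had 1919 CPM in low cells, 1408 CPM in club-type cells and 28.8 CPM in alveolar type 2-type cells. Scgb1a1 took 407741 CPM in club-type cells and 1587 CPM in low cells, which lowers the CPM of the other genes in club-type cells. Its part in these comparisons was not tested. Cyp2f2, the cytochrome that activates naphthalene in club cells, had 1922 CPM (1864 to 1982) in low cells, 6497 CPM in club-type cells and 28.2 CPM in alveolar type 2-type cells. At 1500 UMIs per cell Cyp2f2 was detected in 85.6% of low ciliated cells, 92.7% of club-type cells, 5.28% of alveolar type 2-type cells and 1.01% of T cells. Wfdc2, an antiprotease-like secreted protein, had 3365, 6965 and 3221 CPM in the low ciliated, club-type and alveolar type 2-type cells, and Hp, the secreted hemoglobin-binding protein haptoglobin, had 708, 1685 and 762 CPM.

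Secretoglobins, Bpifb1 and Muc5b were far lower in the low cells than in club-type cells. Scgb3a2, a secretoglobin of the distal airways, had 36.7 and 19176 CPM in the 2 kinds of cell, Scgb3a1 14.6 and 24362 CPM, and Bpifb1, an antimicrobial protein of mucous cells, 0.942 and 2548 CPM. The gel-forming mucin Muc5b had 0 UMIs in the low cells (3 UMIs would be 1.41 CPM) and 814 CPM in club-type cells. Scgb3a2 and Cyp2f2 belong to the rule that found the club-type cells, which partly fixed their levels there. The other 3 genes were uneven among the 61 club-type cells, since Scgb3a1 was detected in 52.5% of them with a median cell of 90.4 CPM, Bpifb1 in 39.3% and Muc5b in 36.1%. The low level of Scgb1a1 in the low cells follows from how they were chosen and is given as a description. Scgb1a1 was the most abundant transcript over all 146 cells, at 161972 CPM and 17.1-fold, and in the low cells its fold was 0.167. It had 1587 CPM in the low ciliated cells against 407741 CPM in club-type cells. T cells, which should lack the gene, also carried it. Pooled they had 7255 CPM, but 1 cell held 32584 of 34696 UMIs in library 2 and 1 cell 42235 of 44399 in library 3. The median T cell had 0.0434% of its UMIs from Scgb1a1 against 0.0934% in the low cells, and at 1500 UMIs per cell it was detected in 697 of 1393 T cells and in 84 of 125 low cells (67.2%). Per UMI of Cyp2f2 there were 0.825 UMIs of Scgb1a1 in the low ciliated cells, 84.2 in the high ciliated cells and 62.8 in club-type cells. By library the low cells gave 2.19, 1.01, 0.782 and 0.313 in libraries 1, 2, 3 and 7, each below the club-type cells of the same library, where the lowest value was 42.7 and library 7 had a single club-type cell. The division at 5% of UMIs largely fixed the order of these ratios among the ciliated cells.

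**Figure D4:**
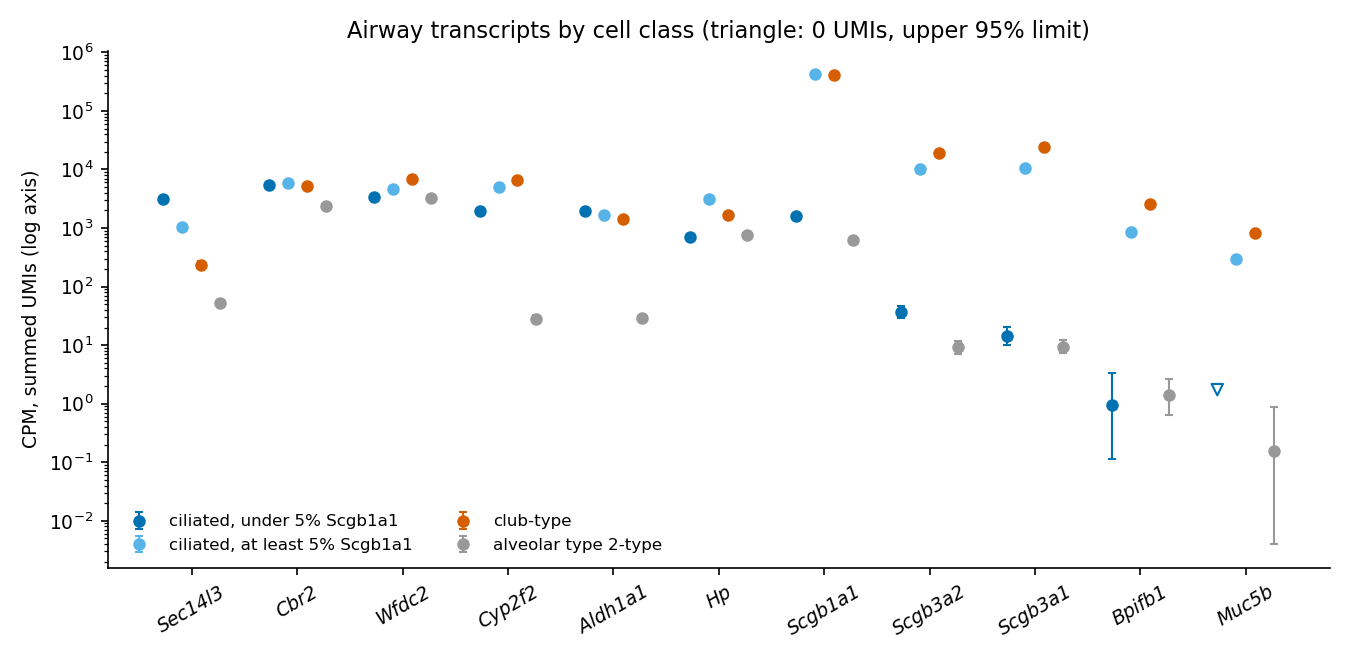
CPM (log axis) of 11 airway genes in the 126 ciliated cells low in Scgb1a1, the 20 high in it, 61 club-type cells and 404 alveolar type 2-type cells, with exact 95% Poisson intervals. Triangles mark 0 UMIs. Cbr2 and Aldh1a1 lie close together in the low ciliated and club-type cells, and Scgb1a1 lies at 1587 against 407741 CPM. The CPM values count all UMIs, including those of Scgb1a1.

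Of 33 genes of oxidant and xenobiotic defence, 17 were at least 4-fold higher in ciliated cells and 4 lower. Cyp2s1, a cytochrome of epithelia, had 846 CPM and was 162-fold higher, with 19.7 CPM in club-type cells. Cyp2b10 had 286 CPM and 93.3-fold and Gpx2, a glutathione peroxidase of epithelia, 207 CPM and 53.6-fold, with 26.6 and 212 CPM in club-type cells. The aldehyde dehydrogenase Aldh3b1 had 674 CPM and 11.5-fold. Gpx1 and Hmox1, abundant in leukocytes, were lower, with folds of 0.199 and 0.0713.

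Antigen presentation, cathepsin and protease genes were compared with the mixed lung cells, of which 65.9% had a Ptprc UMI. The list counts of this paragraph can be read beside the 14.5% of all genes counted that were at least 4-fold higher and the 17.6% that were lower. Of 14 antigen presentation genes 10 were at least 4-fold lower and none higher (median log2 fold −3.45). Of 25 cathepsins, proteases and inhibitors 14 were lower and 3 higher, namely the serine protease inhibitor Spint2 (589 CPM, 13.0-fold), Mmp15 (172 CPM, 6.76-fold) and Adam28 (98.7 CPM, 80.8-fold). Ctsl, the cathepsin the study followed, had 54.8 CPM (47.2 to 63.2) in ciliated cells and 429 CPM in the others, with 58.4 CPM in T cells, 203 CPM in club-type cells and 130.5 CPM in alveolar type 2-type cells. By library it had 59.5, 57.1, 55.4 and 46.3 CPM in the ciliated cells of libraries 1, 2, 3 and 7, against 401, 379, 258 and 816 CPM in the other cells. The ciliated values differed little while those of the other cells differed more. Ctss, a cathepsin of antigen-presenting cells, had 13.7 CPM against 1958. Ctsk had 85.4 CPM against 209 in all other cells, and 3.94 CPM in club-type and 4.41 CPM in alveolar type 2-type cells. Mmp12 and Mmp9 had 3 and 2 UMIs in all ciliated cells, and Elane, Ccl11 and Ccl22 had 0. Among 20 interferon-stimulated genes 1 was higher, Usp18, which removes the modifier Isg15, at 115 CPM and 9.96-fold, and 6 were lower. Of 19 immediate early and stress genes 1 was higher, the chaperone Hsp90aa1, and 1 lower, Klf4, with the immediate early gene Fos at 1264 CPM and a fold of 1.40. Innate defence genes had 6 of 23 higher and 11 lower over all ciliated cells, and 2 higher and 15 lower in the low cells. Among mucin and type 2 genes 9 of 19 were higher over all cells and 3 in the low cells, where the membrane mucin Muc4 had 144 CPM, close to its 112 CPM over all cells.

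Differences between libraries were sought in the 126 low cells, where Scgb1a1 took little of the RNA. Dnah5 had 459, 478, 566 and 589 CPM in libraries 1, 2, 3 and 7, and Rsph1 had 654, 819, 844 and 949 CPM. The rule marker Foxj1, on which the cells were chosen, had 795, 754, 802 and 1016 CPM. Other ciliary genes had wider ranges, with Drc7 at 95.3, 160, 225 and 195 CPM and Dcdc2a at 77.2, 228, 219 and 188 CPM, and their lowest values lay in library 1 with its 10 low cells. Of the 1400 higher genes with at least 30 UMIs, 85 (6.07%) differed at least 2-fold between the highest and lowest of libraries 2, 3 and 7, which each had at least 20 ciliated cells, with intervals that did not overlap. The median ratio of highest to lowest was 1.36.

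Several chaperone genes, some of them chosen after their values were seen, also differed between libraries. Hsp90aa1, the inducible cytosolic Hsp90 and 1 of the 10 most abundant transcripts apart from mitochondrial and ribosomal protein genes, had 5720, 5406, 3309 and 9602 CPM in the low cells of libraries 1, 2, 3 and 7. The other cells of these libraries had 369, 283, 300.2 and 486 CPM. Hspa8, the constitutive Hsp70, had 822, 472, 239 and 3964 CPM in the low ciliated cells, with 1215, 782, 789 and 1525 CPM in the others. It was thus below the other cells in libraries 1, 2 and 3 and above them in library 7. The co-chaperone Hsph1 had 259, 292, 152 and 977 CPM against 26.5, 14.2, 9.60 and 63.8 CPM, and Hspa4l had 890, 990, 798 and 1561 CPM. The strongly heat-induced Hspa1a had 36.3, 12.3, 17.7 and 8.25 CPM. Library 7 was therefore the highest for the first 4 chaperones in ciliated cells and also in the other cells. It was also the highest for Gm42418, a noncoding transcript that overlaps ribosomal RNA sequence, with 4790, 2498, 4893 and 13977 CPM in the low cells and 5265, 3942, 5046 and 15650 CPM in the others, and the part of RNA quality in the chaperone levels was not tested. The low cells had medians of 18530, 14053, 14630 and 19654 UMIs in the same libraries, and the part of depth in these levels was not tested. Library and mouse cannot be told apart.

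Other genes differed between libraries without a shared order. AU040972 had 2093, 240, 561 and 1303 CPM in the low ciliated cells of libraries 1, 2, 3 and 7, and at most 3.12 CPM in the other cells of any of them. Cxcl17, a mucosal chemokine, had 504, 273, 334 and 673 CPM, against at most 7.50 CPM in the other cells. Nr1d1, a circadian repressor, had 36.3, 27.3, 154 and 82.5 CPM, and the other cells had 4.09, 3.79, 36.7 and 8.79 CPM, in the same order of libraries. Over all 146 cells, the largest ratios between libraries 2, 3 and 7 were of secretory and stromal genes, led by Scgb3a1 with 1896, 7580, 3430 and 18.2 CPM in libraries 1, 2, 3 and 7. In the low cells Scgb3a1 had 0, 12.3, 15.9 and 21.5 CPM, so that the ratio rested on the 20 high cells. The stromal genes kept theirs in the low cells. Mgp, a matrix protein of stromal cells, had 13.6, 528, 517 and 8.25 CPM there against 1011, 6167, 4061 and 740 CPM in the other cells, and Eln, which encodes elastin, had 0, 201, 0 and 3.30 CPM against 141, 828, 160 and 217 CPM. The median ciliated cell had 0 CPM of either gene. Mgp was detected in 65.3% and 38.5% of the low cells of libraries 2 and 3, and Eln in 26.5% of those of library 2. The 5 fibroblast markers summed to 0, 108, 53.2 and 2.81 CPM over all ciliated cells of libraries 1, 2, 3 and 7, and their part in these levels was not tested. The summed goblet cell markers had 2476, 848, 621 and 22.5 CPM over all cells, also lowest in library 7 but highest in library 1, and 16.5 CPM in the low cells of the 4 libraries together.

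**Figure D5:**
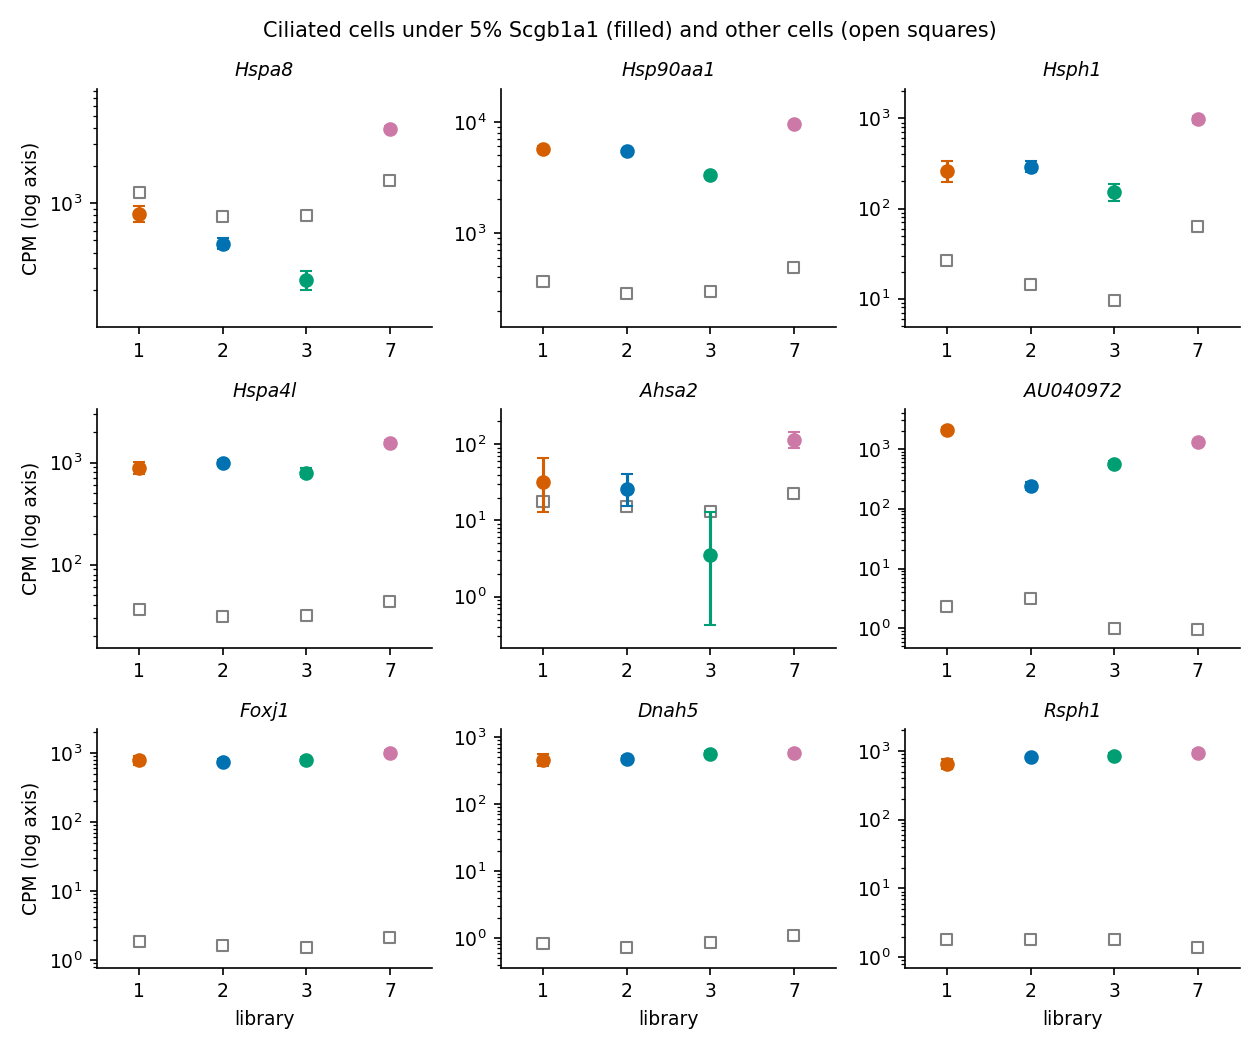
CPM (log axis) of 9 genes in libraries 1, 2, 3 and 7. Filled points are the ciliated cells low in Scgb1a1 (10, 49, 39 and 28 cells) with exact 95% Poisson intervals, and open squares are all other cells of the same library. Hspa8 and Hsph1 are highest in library 7, while Dnah5 stays between 459 and 589 CPM and Foxj1, a marker of the rule, between 754 and 1016 CPM.

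Retnla and Chil4, transcripts of the type 2 response, came almost wholly from library 1 among the ciliated cells. Retnla, a secreted protein induced by interleukin-4 and interleukin-13, had 27447 CPM in the ciliated cells of library 1 and between 28.1 and 60.9 CPM in those of libraries 2, 3 and 7. In the other cells Retnla was also highest in library 1, with 1113, 174.5, 189 and 431 CPM in libraries 1, 2, 3 and 7, and T cells had 239, 29.2, 3.38 and 6.11 CPM. In library 1 the 4 high cells had 45739 CPM (13755 UMIs, of which 6109 lay in 1 cell), the 10 low cells 2474 CPM (545 UMIs, of which 350 lay in 1 cell) and the 15 club-type cells 15391 CPM (3213 UMIs, of which 2527 lay in 1 cell). The low cells of libraries 2, 3 and 7 had 2.73, 3.54 and 31.4 CPM. Chil4, a chitinase-like protein of the same response, had 562 UMIs, of which 560 lay in 1 high cell of library 1, and none in any low cell. In the other cells Chil4 was highest in library 7, with 1.49, 0.4545, 0.307 and 3.96 CPM in libraries 1, 2, 3 and 7. Among the ciliated cells both genes thus sat mainly in the high cells. All 20 of these met the club-type rule and 15 also the alveolar type 2-type rule. The latter needs only 1 UMI of each of 3 genes, and the high cells had a median of 62417 UMIs. In the high cells Sftpc had 55.8 CPM, against 158525 CPM in alveolar type 2-type cells and 61.1 CPM in club-type cells. For Sftpa1, a gene of that rule, the values were 2164, 25548 and 1485 CPM. Over the 4 libraries, alveolar type 2-type cells had 1666 CPM of Retnla (10576 UMIs) and 0 UMIs of Chil4. Over all 146 cells Retnla was 9.47-fold above the other cells, and without library 1 its fold was 0.194.

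The ratio of the variance to that expected from sampling between the low cells was computed for 856 genes at least 16-fold higher. Its median was 1.32, and 728 of them (85.0%) were under 2. This ratio can stay near 1 for a gene with few UMIs whatever its spread, and some abundant ciliary genes had higher ratios, with 7.48 for Tppp3 and 8.27 for Sec14l3. AU040972 varied most, with a ratio of 37.2 and values from 0 to 9627 CPM around a median of 262 CPM. Differences between libraries enter the ratio, and they were wider for AU040972 (240 to 2093 CPM in the low cells) than for Cbr2 (4781 to 6015 CPM). Hsp90aa1 had a ratio of 31.5, with a median of 4860 CPM and a highest value of 15084, and Cbr2 had 20.6. The cyclin-dependent kinase inhibitor Cdkn1c had 19.2, with a median of 222 CPM and a highest of 4976, and Cyp2a5, a xenobiotic cytochrome, had 17.8, with UMIs in 46.8% of low cells. Among tubulins Tubb4b had 13.7, with a median of 2469 CPM and a highest of 10579. Tubb4b was detected in every low cell, and its lowest value was 231 CPM.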

How the data were processed

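The authors deposited whole-number UMI counts per gene and cell as 1 matrix, made with Cell Ranger and its STAR aligner on mm10 per the labels, with reads down-sampled as required to even out the libraries. The labels and the supplementary methods name different versions of the 3′ kit. No other normalization was applied to the deposited counts. They were stored before the authors' own cell filter, a version of which is 1 of the alternatives. Gene positions are of GENCODE M21 (GRCm38), in which 31011 of 31053 identifiers were found.

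No doublet caller was run. Cells with Ptprc were left out by the rule, and cells high in Scgb1a1 are given apart. UMIs were summed over cells and divided by the total to give CPM, and a count under 3 was read as 3 counts in folds. Genes were named by rules of fold, level, spread and list (20 highest folds, 10 highest levels, the 4 most abundant and the absent members of each list, and genes the study measured); others were chosen after their values were seen. Some genes are not reported here. The members and the 34 lists were chosen with earlier results of these data known. Thinning, leaving out libraries, other limits and other comparison cells were tried as alternatives. The fold calls, the Poisson intervals and the variance ratio were tested on simulated data, and the other steps were not. Python 3.11.15, numpy 2.4.6, scipy 1.17.1, pandas 2.3.3 and matplotlib 3.10.9 were used.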

Additional observations from a re-analysis of the deposited data

Results flagged for a closer look

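There were 20 cells with the marker rule that also had a Ptprc UMI, and they are not counted among the ciliated cells. They came from libraries 1, 2, 3 and 7 with 5, 9, 4 and 2 cells, and 14 of them had a single Ptprc UMI while the highest had 8. All 4 markers were detected in 19 of them, with a median of 85 marker UMIs and 21089 UMIs in all. At least 5 UMIs of Cd74 were present in 9 of the cells, at least 5 of Lyz2 in 8, and 6 had at least 5% of UMIs from Scgb1a1. Whether these droplets held a ciliated cell and a leukocyte was not tested.

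In libraries 4, 5 and 6, which held no cell of the rule, 8 of 12991 cells had a UMI of a marker. A further 7 cells of libraries 2, 3 and 7 met the rule but had more than 20% of UMIs from mitochondrial genes and are not among the 146.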

How the results depend on the processing

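No paired analysis was possible because the libraries carry no group. The number of ciliated cells was 60 with the version of the authors' filter used here, 88 without library 2 and 95 without cells that also met the club-type or alveolar type 2-type rule. Genes at least 4-fold higher numbered 1088 with cells thinned to 1500 UMIs and 5331 with no filter on low counts. Genes lower numbered 804 when thinned, 1400 at 8-fold and 969 against club-type and alveolar type 2-type cells. The other 65 counts of cells and genes stayed within 1.5 times. Over all alternatives 364 folds of named genes moved beyond the counting interval of the main value, 284 did not and 12 turned to the other side of 1, and 99 list counts moved by more than 1.5 times while 1261 did not. Folds that turned below 1 were of club and type 2 transcripts. Scgb1a1 went from 17.1 to 0.167 without the 20 high cells and 0.123 without cells meeting either rule. Retnla went to 0.0208 with the authors' filter, 0.194 without library 1, 0.602 without the high cells and 0.0532 without cells meeting either rule. Scgb3a1 went to 0.115 with the authors' filter, 0.0613 without the high cells and 0.0193 without cells meeting either rule, and Scgb3a2 to 0.742, 0.138 and 0.0690 under the same 3 settings. The axonemal genes at least 4-fold higher numbered between 97 and 109 over the 20 alternatives, against 107. The alternatives that remove the high cells or cells meeting either rule, and the comparison without marker cells with Ptprc, were added after the data were seen. Depth limits genes near 10 UMIs, and with 14 ciliated cells library 1 is the least precise.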

Other observations

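Among 22 counted genes for nucleotide supply 9 were at least 4-fold higher in ciliated cells and 1 was lower, where 14.5% of all genes counted were higher and 17.6% lower. The adenylate kinases Ak7 and Ak9, which regenerate ATP in the cilium, had 283 and 111 CPM in ciliated cells and were 419-fold and 368-fold higher than in the other cells, and the mitochondrial creatine kinase Ckmt1 had 72.8 CPM and 44.8-fold. The mitochondrial matrix kinase Ak3 had a fold of 1.97. Lactate dehydrogenase showed a similar split, with Ldhb at 472 CPM and 16.9-fold and Ldha at 242 CPM and a fold of 0.907. The glycolytic genes Pkm and Pgam1 had folds of 0.351 and 0.694.

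Of 14 planar cell polarity genes counted 6 were at least 4-fold higher and 1 lower, and of 13 Notch pathway genes 4 were higher and 3 lower. Over all genes counted 14.5% were higher and 17.6% lower. The median log2 folds of the 2 lists were 1.92 and −0.60, against −0.21 over all genes counted. Bbof1, a basal body protein that orients cilia, had 158 CPM and was 225.5-fold higher, and the assembly factor Dnaaf1, also in the polarity list, 61.2 CPM and 339-fold. Celsr1, an atypical cadherin that aligns cilia across the epithelium, had 73.7 CPM and was 18-fold higher, and Vangl1 had 41.9 CPM and 5.76-fold, while Vangl2 had 12 UMIs in all. Of the Notch pathway the ligands Jag1 and Jag2 had 162 and 64.1 CPM with folds of 12.2 and 6.48, and Dll1 and Dll4 were lower with folds of 0.121 and 0.231. The transcription factors Hes1 and Hes6 had 264.5 and 126 CPM with folds of 4.36 and 4.82. Notch1 and Notch2 had folds of 0.941 and 0.544.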
